A study of Mus musculus with 14 samples.

Results

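The mitochondrial ribosomal protein genes were followed in macrophages from mouse mammary tumours. Members were taken by name: protein-coding genes whose symbol starts with Mrpl or Mrps and a digit, with an unlogged value of at least 10 (3.32 on the log2 scale of the deposited table) in at least 3 libraries. All 78 such genes of the annotation were in the table of 24556 genes, and 76 passed this filter, among 11886 genes that passed it in all. The 76 were 49 Mrpl and 27 Mrps genes. Mrps31 and Mrps28 reached the minimum in 0 libraries, with highest values of 3.16 and 3.04, and were not tested. Just inside the filter were Mrps12 (3.97 to 5.19 over the libraries), Mrpl16 (4.25 to 5.28) and Mrps22 (4.35 to 5.06).

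The libraries came from F4/80-positive cells, isolated with magnetic beads over 2 rounds of columns from tumours of 4T1 cells, a mouse mammary carcinoma line, grown in the fat pad. The 4T1 cells, not the mice, had been exposed for 5 days to vehicle (DMSO) or to 5 µM GSK269962A, a small-molecule inhibitor known as a ROCK inhibitor. Tumours were taken 8 days after injection (3 DMSO and 3 GSK libraries) or 14 days after it (4 DMSO and 4 GSK libraries). No genetic change or other agent is named for any group, and whether the libraries stand for different mice is not in the labels, so p-values reflect only how much these samples vary. The question for the members is whether pre-treatment of the tumour cells or the age of the tumour went with a different level of these genes in the isolated cells.

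Mitochondria hold their own ribosome, which makes the few proteins encoded by mitochondrial DNA, all of them parts of the respiratory chain and ATP synthase. Its ribosomal RNAs come from mitochondrial DNA, whereas every protein of its large and small subunit is encoded in the nucleus, made in the cytosol and imported. Some of these proteins have counterparts in bacterial ribosomes and others occur only in mitochondria. In macrophages, mitochondrial respiration is known to differ between activation states.

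By their place in the ribosome, 51 members belong to the large subunit, 24 to the small subunit and 1, Mrps36, to no subunit: it is named as a ribosomal protein but is known as a part of the oxoglutarate dehydrogenase complex. Mrps30 and Mrps18a carry small-subunit names and sit in the large subunit. The genes lay on 17 chromosomes, with 11 on chromosome 11 and 8 on chromosome 17. A start site of another protein-coding gene lay on the opposite strand within 1000 bases of the member's own for 33 of 76 members (43.4%). The share was 16.9% among 10534 protein-coding genes that passed the filter. These neighbours, called divergent below, start either upstream of the member or inside it. Mrps11 and Mrpl46, of different subunits, are such neighbours of each other, each starting inside the other. Exons overlapped a gene on the opposite strand in 28 members (36.8%, against 31.8%), and in 29 members (38.2%, against 22.6%) 10% or more of all 31-base words also occurred in other genes. Whether the authors' counting used strand is not given in the sources used here, so reads of such genes may not be fully told apart.

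Promoters were read from RefSeq (build GRCm38.p6) as the 250 bases before each start site, and 74 promoters of 68 members were found. The sequences below were chosen because they hold motifs of factors known to act on nuclear genes for mitochondrial proteins: first the members past the test on day 14, then members of the list that was always named. Capitals mark matches, on either strand, to the NRF1 core (GCATGCGC), the ETS motif (CCGGAAG, bound by GABPA among others) or the YY1 motif (AAGATGG). The far end of the Mrpl10 sequence, 76 bases inside an exon of Lrrc46, was left out.
Mrpl10, chr11:97041408-97041581, plus strand: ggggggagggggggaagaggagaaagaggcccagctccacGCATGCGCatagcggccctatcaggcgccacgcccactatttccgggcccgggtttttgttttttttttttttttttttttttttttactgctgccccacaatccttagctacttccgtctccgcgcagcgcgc
Mrpl52, chr14:54426659-54426908, plus strand: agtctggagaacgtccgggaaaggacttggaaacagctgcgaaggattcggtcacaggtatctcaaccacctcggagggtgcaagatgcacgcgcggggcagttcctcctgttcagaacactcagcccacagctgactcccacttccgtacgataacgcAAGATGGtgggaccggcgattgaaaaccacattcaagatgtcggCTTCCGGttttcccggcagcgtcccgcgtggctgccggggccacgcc
Mrpl17, chr7:105811088-105811337, minus strand: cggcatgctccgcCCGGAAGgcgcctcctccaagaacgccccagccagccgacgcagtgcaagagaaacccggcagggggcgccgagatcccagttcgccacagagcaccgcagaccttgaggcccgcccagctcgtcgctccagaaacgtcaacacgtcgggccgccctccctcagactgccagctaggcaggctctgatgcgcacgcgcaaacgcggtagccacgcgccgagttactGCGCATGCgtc
Mrpl58, chr11:115403502-115403751, plus strand: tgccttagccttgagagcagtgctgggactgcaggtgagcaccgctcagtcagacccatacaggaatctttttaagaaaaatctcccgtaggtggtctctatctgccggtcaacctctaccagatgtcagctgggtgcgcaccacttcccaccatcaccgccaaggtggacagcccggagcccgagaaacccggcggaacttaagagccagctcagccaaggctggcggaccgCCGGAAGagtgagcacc
Mrps22, chr9:98601680-98601929, minus strand: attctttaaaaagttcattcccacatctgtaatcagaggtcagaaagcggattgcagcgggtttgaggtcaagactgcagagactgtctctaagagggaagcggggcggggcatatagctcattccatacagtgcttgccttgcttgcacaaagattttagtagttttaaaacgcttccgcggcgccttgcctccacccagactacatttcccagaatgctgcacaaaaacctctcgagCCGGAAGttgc

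Counting back from the start site, the NRF1 core stood at -134 in Mrpl10 and at -11 in Mrpl17. The last 22 bases of the Mrpl10 sequence and the last 12 of the Mrpl17 sequence lie in the first exon as GENCODE places it. The ETS motif stood at -47 in Mrpl52, -237 in Mrpl17, -17 in Mrpl58 and -11 in Mrps22. The YY1 motif stood at -91 in Mrpl52. A YY1 match at -198 in Mrps12 lay within an exon of its neighbour Sars2 and is not shown. Over all member promoters the NRF1 core was in 8 of 74 (10.8%). It was in 4.35% of 10688 promoters of protein-coding genes that passed the filter and in 2.26% of all 32851 promoters of the table. The ETS motif was in 24.3% (14.2% and 6.91% in the same 2 sets), and 17 of its 20 matches began within 100 bases of the start. The YY1 motif was in 6 of 74 (8.11%, beside 4.42% and 4.49%), the match in Mrps12 among them. Other motifs differed less from the genes that passed the filter: the E-box CACGTG was in 9.46% (8.48% and 6.02%), CCAAT in 36.5% (34.8% and 33.8%) and GGGCGG, the SP motif, in 37 of 74 (58.2% and 32.7%). Both strands were searched and no motif contains another. A match describes letters only, and of the 10 members past the test on day 14, 4 had an NRF1 core, ETS or YY1 match, a share of 40.0% beside 37.8% of all member promoters.

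Levels differed far more between members than between conditions. Per kilobase of transcript, the mean unlogged value over the 14 libraries ran from 12.4 for Mrpl1, the protein of the L1 stalk, to 2460 for Mrps21, a small-subunit protein, a 198-fold range with a median of 110 (unlogged units per kilobase). Mrps21 was followed by Mrpl14 (1970), which forms part of the face towards the small subunit, Mrpl23 (1480), at the exit of the peptide tunnel, Mrpl52 (1110) and Mrpl42 (787). The lowest after Mrpl1 were Mrpl47 (15.1), Mrps5 (17.8), Mrpl50 (19.3) and Mrpl3 (19.4). The order depends on the length used: with the median transcript length in place of the principal transcript's, Mrps21, Mrpl14 and Mrpl23 stayed among the 5 highest, and Mrpl50 and Mrpl1 among the 5 lowest. Large-subunit members had a median of 115 per kilobase and small-subunit members 93.4.

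**Figure D1:**
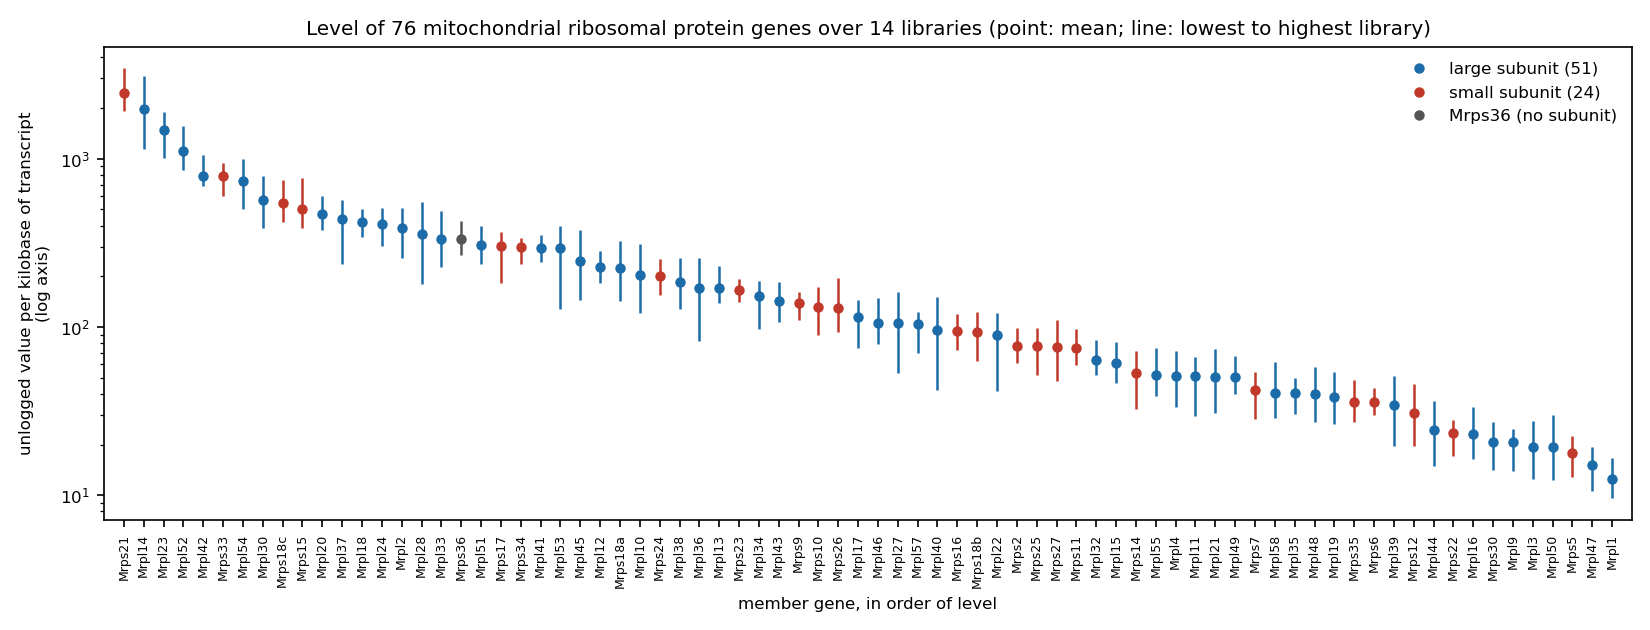
Level of each of the 76 members, as the unlogged value per kilobase of transcript on a log axis; points are means over 14 libraries, lines run from the lowest to the highest library, and colours give the subunit. Mrps21 is at 2460 and Mrpl1 at 12.4, and members of both subunits are spread along the whole order.

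Between libraries the members hardly moved as a group. The median difference of the members from their own means lay between -0.10 (DMSO day 8, library 1) and 0.15 (DMSO day 8, library 2) on the log2 scale. Within groups the median SD of a member was 0.24, as for all genes that passed the filter (0.24), and single members ran from 0.11 to 0.46. Large- and small-subunit medians stayed within -0.16 to 0.15 in every library.

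Before the comparisons, 2 features of the libraries bear on them. A pair of overlapping ribosomal RNA genes split the libraries: 9 had their signal on AY036118 (all 4 of GSK day 14, 2 of DMSO day 14, 2 of GSK day 8 and 1 of DMSO day 8) and 5 on Gm42418, so each member's change is also given among the 9 libraries alone. The other kind holds 0 GSK day 14 libraries and gives no day 14 value. All 12 macrophage markers passed the filter. Their summed unlogged level was 129000 to 162000 in GSK day 14 and 144000 to 248000 in DMSO day 14 libraries. This sum weighs abundant genes most, such as C1qa, with means of 16.78 in DMSO and 15.93 in GSK day 14 libraries (log2 scale). By log2 change on day 14, 9 of the 12 markers were positive and 3 negative, with a median of 0.39. On day 14, 4 of the 12 were higher and 2 lower by the limma test used below, and their part in the members' changes was not tested. The 4T1 epithelium list (11 of 14 genes passed; Krt5 is not in the table used) summed to 1260 to 1740 and 1360 to 2120 in the same groups, to 1850 to 3960 in GSK day 8 and to 2370 to 3020 in DMSO day 8 libraries.

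On day 14, pre-treatment of the tumour cells went with both higher and lower members. Of 76 members, 4 were higher and 6 lower in GSK tumours by the limma test (adjusted p under 0.05), together 13.2% beside 10.8% of all 11886 genes (5.1% higher and 5.73% lower), and the median log2 change was 0.00 beside 0.02 for all genes. An unadjusted p under 0.05 was reached by 27 members, beside 27.3% of all genes. In the large subunit 3 rose and 6 fell of 51, and in the small subunit 1 rose and 0 fell of 24. The changes were small: 8 of 76 members differed by 1.5 times or more. In these bulk fractions, fewer cells of a type and less RNA per cell cannot be told apart.

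**Figure D2:**
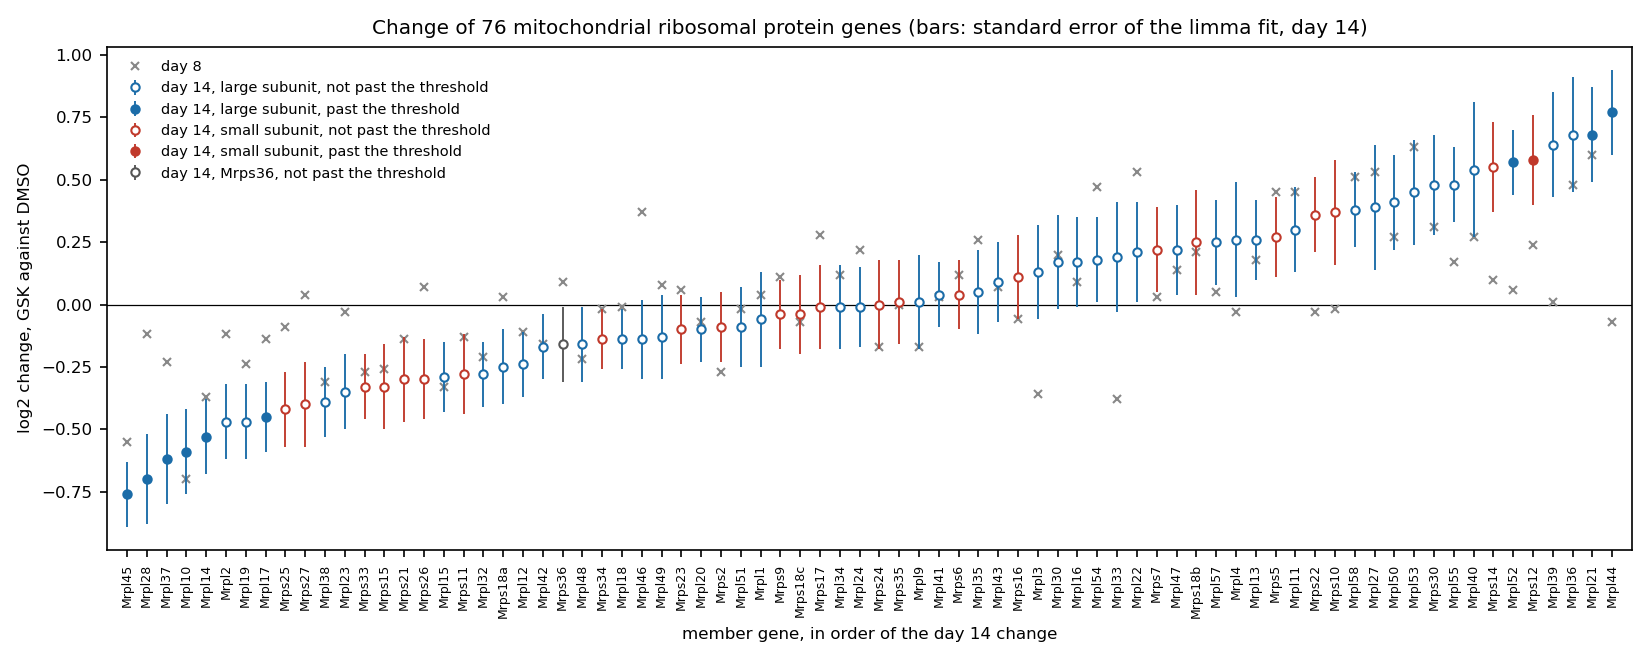
Log2 change of each member, GSK against DMSO, in order of the day 14 change; circles with bars are day 14 values with the standard error of the limma fit, filled where past the threshold, and crosses are day 8 values. The circles run from -0.76 (Mrpl45) to 0.77 (Mrpl44) and lie evenly about 0, with 38 above and 38 below.

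Among members lower on day 14, Mrpl45 had the smallest p. This large-subunit protein lies at the tunnel exit and is known to hold the ribosome to the inner membrane. Mrpl45 (ENSMUSG00000018882, chromosome 11, 97315716 to 97329920) had 9.37, 9.51, 9.42 and 9.29 in the DMSO day 14 libraries and 8.51, 8.75, 8.85 and 8.46 in the GSK day 14 libraries. The groups did not overlap. Its log2 change was -0.76 (SE 0.13, 1.69-fold lower; adjusted p = 0.00462, limma), and -0.75 among the libraries with AY036118 high. On day 8 it had 9.64, 9.83 and 9.44 in DMSO and 9.09, 9.10 and 9.06 in GSK libraries, again without overlap, a change of -0.55 that did not pass (adjusted p = 0.094, limma). Of its 31-base words, 13.4% also occur elsewhere among the genes.

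Mrpl10 forms the base of the stalk that calls translation factors to the ribosome. Mrpl10 (ENSMUSG00000001445, chromosome 11, 97041560 to 97049213) had 8.23, 8.94, 8.43 and 8.65 in DMSO and 8.29, 7.80, 8.10 and 7.69 in GSK day 14 libraries. The groups overlapped in 1 library of each. The change was -0.59 (SE 0.17; adjusted p = 0.0408, limma), -0.36 with an adjusted p = 0.193 among the libraries with AY036118 high (limma). On day 8 all 3 GSK libraries (8.14, 8.22 and 8.14) lay below all 3 DMSO libraries (9.06, 8.53 and 9.02), with a change of -0.70 that did not pass (adjusted p = 0.115, limma). Of its 31-base words, 17.3% also occur elsewhere.

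Mrpl14 and Mrpl28, counterparts of bacterial large-subunit proteins, also fell. Mrpl14 (ENSMUSG00000023939, chromosome 17, 45686322 to 45698495) had 10.30, 10.42, 10.09 and 10.33 in DMSO and 9.88, 9.85, 9.75 and 9.53 in GSK day 14 libraries, without overlap. Its change was -0.53 (SE 0.15; adjusted p = 0.0337, limma) and -0.45 among the libraries with AY036118 high, where it did not pass. Mrpl28 (ENSMUSG00000024181, chromosome 17, 26123500 to 26126613) had 8.95, 8.61, 8.48 and 8.54 in DMSO and 7.95, 7.94, 8.31 and 7.59 in GSK libraries. These groups did not overlap either, and library 4 of the GSK group was the lowest for both genes. The change of Mrpl28 was -0.70 (SE 0.18; adjusted p = 0.0272, limma), and -0.77 among the libraries with AY036118 high.

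For the remaining lower members the groups touched. Mrpl37, a mitochondria-specific protein of the large subunit (ENSMUSG00000028622, chromosome 4, 107055874 to 107066868), had 9.73, 9.55, 9.08 and 9.55 in DMSO and 9.16, 8.85, 8.95 and 8.47 in GSK day 14 libraries. DMSO library 3 lay below the highest GSK library. Its change was -0.62 (SE 0.18; adjusted p = 0.0365, limma), -0.54 and not past the threshold among the libraries with AY036118 high. Mrpl17, near the tunnel exit (ENSMUSG00000030879, chromosome 7, 105803206 to 105811099), had 10.05, 9.57, 9.84 and 9.99 in DMSO and 9.48, 9.49, 9.58 and 9.10 in GSK libraries. DMSO library 2, at 9.57, lay just below GSK library 3. The change was -0.45 (SE 0.14; adjusted p = 0.0448, limma), -0.53 with an adjusted p = 0.0537 among the libraries with AY036118 high (limma).

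Of the higher members, Mrpl44 changed most. It carries a fold related to ribonuclease III. Mrpl44 (ENSMUSG00000026248, chromosome 1, 79776018 to 79781445) had 4.4, 4.77, 5.04 and 4.81 in DMSO and 5.45, 5.69, 5.28 and 5.66 in GSK day 14 libraries. All GSK libraries lay above all DMSO libraries. The change was 0.77 (SE 0.17, 1.70-fold higher; adjusted p = 0.0141, limma), and 0.80 among the libraries with AY036118 high. On day 8 its change was -0.07. Its exons overlap a gene on the opposite strand, and Wdfy1, the gene that starts beside it, had a change of 0.17 (adjusted p = 0.668, limma).

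Mrpl21, a counterpart of a bacterial protein (ENSMUSG00000024829, chromosome 19, 3282901 to 3292837), had 5.98, 5.14, 5.76 and 5.28 in DMSO and 6.08, 6.39, 6.16 and 6.26 in GSK day 14 libraries. The lowest GSK library, at 6.08, lay just above the highest DMSO library, so the groups did not overlap. The change was 0.68 (SE 0.19; adjusted p = 0.0343, limma), but 0.35 with an adjusted p = 0.146 among the libraries with AY036118 high (limma), where the DMSO libraries are the 2 highest of that group, 5.98 and 5.76. On day 8 it was 0.60 (adjusted p = 0.194, limma), also without overlap. Mrpl21 shares 14.5% of its words and overlaps exons on the opposite strand; its divergent neighbour Ighmbp2 had a day 14 change of 0.24 (adjusted p = 0.27, limma).

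Mrpl52 and Mrps12 complete the higher members. Mrpl52, found only in mitochondrial ribosomes (ENSMUSG00000010406, chromosome 14, 54426909 to 54429756), had 8.82, 8.49, 8.52 and 8.67 in DMSO and 9.30, 9.02, 9.13 and 9.35 in GSK day 14 libraries, without overlap. The change was 0.57 (SE 0.13; adjusted p = 0.0163, limma), and 0.53 among the libraries with AY036118 high. Mrps12, a protein of the decoding centre (ENSMUSG00000045948, chromosome 7, 28739641 to 28741820), has the lowest mean value of all 76 members. It had 4.11, 4.65, 4.62 and 4.46 in DMSO and 5.19, 4.95, 5.00 and 5.01 in GSK day 14 libraries, also without overlap. The change was 0.58 (SE 0.18; adjusted p = 0.0472, limma), and 0.67 among the libraries with AY036118 high. Its divergent neighbour Sars2, a mitochondrial tRNA synthetase, had a change of 0.23 (adjusted p = 0.355, limma).

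**Figure D3:**
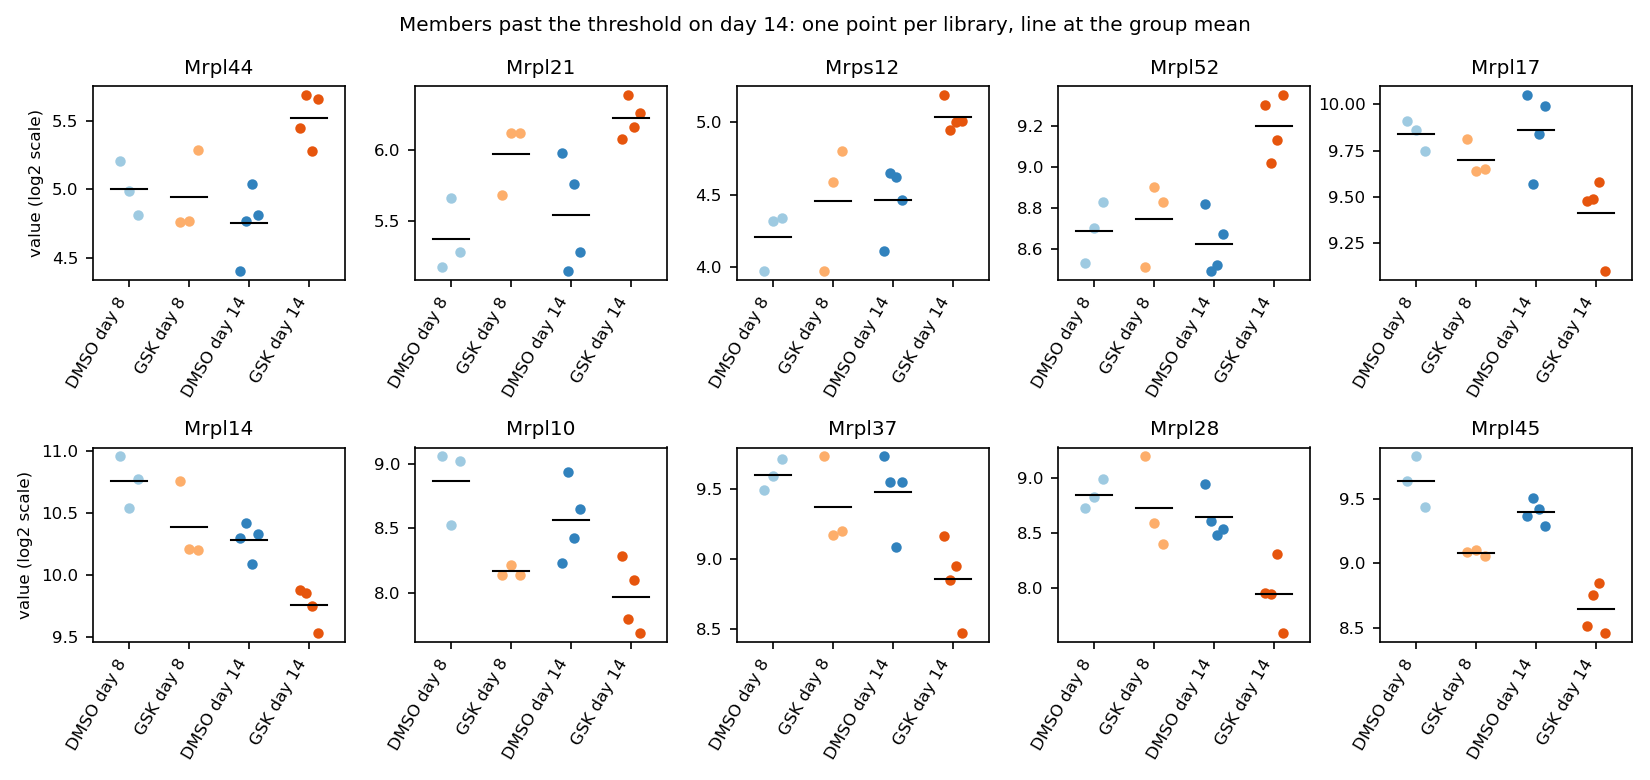
Deposited value (log2 scale, vertical axis) of the 10 members past the day 14 threshold in each library, with 1 point per library and a line at each group mean. In 7 of the 10 panels the GSK day 14 points do not overlap the DMSO day 14 points; Mrpl17, Mrpl10 and Mrpl37 are the others.

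Over all members, 17 had day 14 groups that did not overlap, beside 22.0% of all genes, and 9 of the 17 were higher in GSK. Several members with a known role that did not pass had small changes on day 14: the stalk proteins Mrpl11 (0.30) and Mrpl12 (-0.24), the small-subunit proteins Mrps2 (-0.09), Mrps7 (0.22) and Mrps16 (0.11), Mrps34 (-0.14), Mrps22 (0.36), Mrps30 (0.48), Mrps18a (-0.25), Mrpl3 (0.13) and the peptidyl-tRNA hydrolase Mrpl58 (0.38). Mrps34 had the lowest within-group SD of all members (0.11), with values of 7.76 to 8.27 over the 14 libraries, and 73.8% of its words also occur in other genes.

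The direction on day 14 went with the level of the member, a feature noticed after the values were seen. Of the 38 members at or above the median level of 7.58 (log2 scale), 28 had a negative change (73.7%), with a median of -0.15. Of the 38 below it, 28 had a positive change (73.7%), with a median of 0.22. All 6 members that fell were in the upper group, whereas 3 of the 4 that rose were in the lower one, Mrpl52 being the other. Among all genes the lower calls were spread in a like way, with 12.6% above the split and 1.6% below it. The higher calls were not: 5.75% of all genes above and 4.71% below, beside 2.63% and 7.89% of members. Among all genes that passed the filter the same split gave 57.6% negative above and 58.4% positive below, with medians of -0.07 and 0.05. The same signs of the member medians were found after quantile normalisation (-0.15 and 0.13) and TMM rescaling (-0.17 and 0.20). They were also found after subtraction of the GC trend within libraries (-0.14 and 0.22) and adjustment for the ribosomal RNA split (-0.17 and 0.11). After quantile normalisation, however, the medians of all genes were -0.02 above and -0.01 below the split. Of the members below it 24 of 38 were then positive, with 1 called higher and 1 lower. Above it 1 member was called higher and 4 lower. On day 8, in the main fit, the member medians were -0.04 and 0.09. How the authors' transformation treats low values is not given in the sources used here, and its part in this pattern was not tested.

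**Figure D4:**
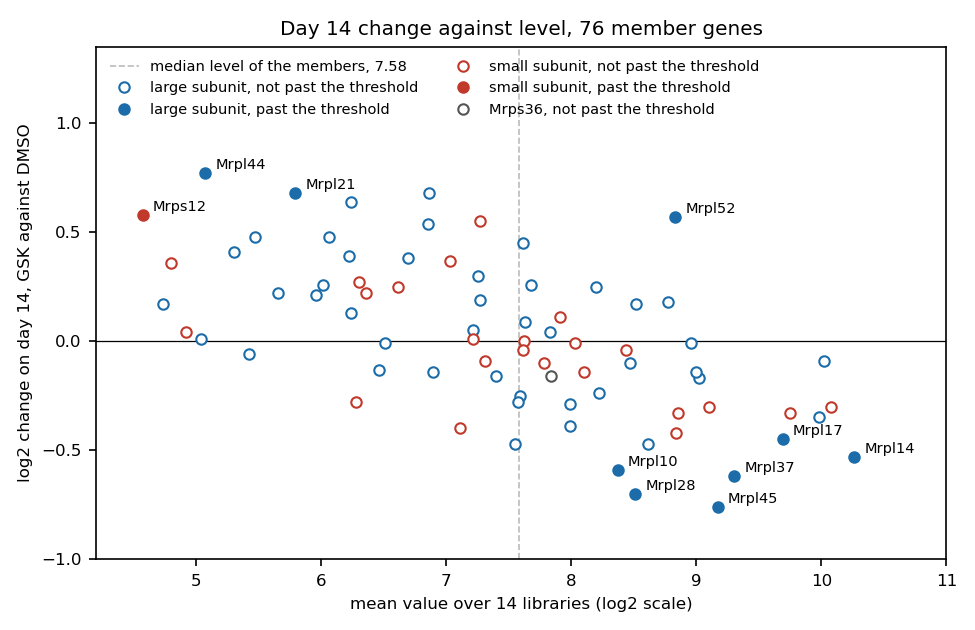
Day 14 log2 change (vertical axis) against the mean value over 14 libraries (log2 scale, horizontal axis) for the 76 members; filled points passed the threshold and the dashed line is the median level, 7.58. Right of the line 28 of 38 points lie below 0, and left of it 28 of 38 lie above 0.

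Calls on day 14 depended on single libraries and on covariates. With the mean of the 4T1 epithelium list in the model 3 members passed (Mrpl44, Mrpl52 and Mrpl45), beside 4.36% of all genes. Mrpl45 passed without each of the 14 libraries in turn (adjusted p up to 0.0264, limma), and Mrpl44 was lost without GSK day 14 library 4 alone (adjusted p = 0.0667, limma). Mrpl52 was lost on removal of library 2 of DMSO day 14 or library 4 of GSK day 14 (up to 0.0745). Mrpl28 was lost without DMSO library 1 or 2 or GSK library 1, 2 or 4 of day 14 (up to 0.115), and Mrpl21, Mrpl10, Mrpl37 and Mrpl14 without any of 6 to 7 libraries (up to 0.111, 0.153, 0.146 and 0.132). Mrps12 and Mrpl17 were each lost without any of 10 libraries (up to 0.127 and 0.173). Leaving out library 1, 2 or 4 of the DMSO day 14 group took the count of members past the threshold to 5, 3 or 5. Leaving out library 1, 2, 3 or 4 of the GSK day 14 group took it to 5, 3, 4 or 1, and leaving out library 1 of GSK day 8 raised it to 16. With the ribosomal RNA split in the model only Mrpl44 (0.75, adjusted p = 0.0488, limma) and Mrpl45 (-0.80, adjusted p = 0.013, limma) passed. Calls among all genes fell with it too. Above the level of 7.58, 1.66% of all genes were then higher and 3.57% lower, beside 5.75% and 12.6% in the main fit. Below it the shares were 1.33% and 0.404%, beside 4.71% and 1.6%. Among the 9 libraries with AY036118 high 4 members rose and 2 fell, and the share of all genes there is not given.

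On day 8, 0 of 76 members passed the limma test, beside 0.194% of all genes (0.0589% higher and 0.135% lower), and the median change was 0.03. An unadjusted p under 0.05 was reached by 10 members, beside 16.3% of all genes, and 8 had groups without overlap, beside 16.2% of all genes. The smallest adjusted p was that of Mrpl45, and without DMSO day 8 library 2 Mrpl10 passed (-0.87, adjusted p = 0.0468, limma). Mrpl58 had the smallest p among the higher ones, with 6.22, 6.59 and 6.49 in DMSO and 7.33, 6.74 and 6.75 in GSK libraries, a change of 0.51 (SE 0.17; adjusted p = 0.168, limma). Its groups did not overlap on either day. On both days 55 members had the same sign (72.4%), beside 65.5% of all genes. The difference between the days' changes passed for 0 members (lowest adjusted p = 0.504, limma; 2 with an unadjusted p under 0.05, beside 8.3% of all genes), beside 0.00841% of all genes.

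Averaged over both days, 5 members were higher and 7 lower in GSK tumours, 15.8% beside 14.5% of all genes (6.73% higher and 7.77% lower), with a median change of 0.01. Of these, 11 were of the large subunit. The higher ones were Mrpl21 (0.64), Mrpl36 (0.58), Mrpl53 (0.54), Mrpl58 (0.44) and Mrpl52 (0.32). Mrpl53 shares 84.4% of its words with other genes. The lower ones were Mrpl45 (-0.65, SE 0.10; adjusted p = 0.00108, limma), Mrpl10 (-0.65, SE 0.13; adjusted p = 0.00659, limma), Mrpl14 (-0.45), Mrpl37 (-0.42), Mrpl38 (-0.35), Mrpl19 (-0.35) and the small-subunit protein Mrps33 (-0.30). Mrpl45, Mrpl10, Mrpl58 and Mrpl21 passed without each library in turn, and Mrpl14 was lost without GSK day 8 library 2 or 3 (adjusted p up to 0.0571, limma). Each of the other 7 was lost without any of 8 to 13 libraries (adjusted p up to 0.153, limma). The count fell to 4 on removal of library 2 or 3 of GSK day 8 and rose to 19 on removal of library 1 of that group. It was 5 to 7 on removal of GSK day 14 library 1, 3 or 4, of DMSO day 14 library 2 or 4, or of DMSO day 8 library 1. With the ribosomal RNA split in the model 4 passed (Mrpl10, Mrpl58, Mrpl45 and Mrpl21). Among the 9 libraries with AY036118 high, DMSO day 8 holds library 2 alone, so only changes are given. There Mrpl10 was at -0.36, Mrpl58 at 0.25 and Mrpl21 at 0.41. Mrpl45 was at -0.75, Mrpl36 at 0.51, Mrpl53 at 0.55, Mrpl19 at -0.48 and Mrpl52 at 0.35. Mrpl14 was at -0.39, Mrpl37 at -0.48, Mrpl38 at -0.36 and Mrps33 at -0.17.

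Mrpl36 is the member of this group with the widest spread. It had 6.89, 6.60 and 5.88 in DMSO and 6.54, 6.94 and 7.34 in GSK day 8 libraries, and 6.85, 6.14, 6.82 and 6.76 in DMSO and 7.43, 7.10, 7.24 and 7.52 in GSK day 14 libraries. The day 14 groups did not overlap and the day 8 groups did. Its mean change was 0.58 (SE 0.17; adjusted p = 0.0371, limma), and 0.51 among the libraries with AY036118 high. Ndufs6, a complex I gene that starts beside it on the opposite strand, had a mean change of -0.50 (adjusted p = 0.016, limma). Mrpl32 and Mrpl49 had mean changes of -0.24 and -0.03 that did not pass, while their divergent neighbours Psma2, a proteasome subunit, and Fau, a cytosolic ribosomal protein, changed by 0.69 and -0.83 (adjusted p = 0.00943 and 0.00586, limma). Ighmbp2, beside Mrpl21, rose with it (0.34, adjusted p = 0.0354, limma), and Klc4 rose (0.42, adjusted p = 0.0333, limma) beside Mrpl2, which was at -0.30 and did not pass. These 5 are the divergent neighbours that passed for the mean of both days, and they were chosen after their values were seen. Divergent neighbours were found for 33 members, though not all of these neighbours passed the filter and were tested. Of all genes 14.5% passed for this mean.

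With tumour age, 0 members passed in DMSO tumours and 3 fell in GSK tumours; the difference between these was tested as the interaction above. From day 8 to day 14 in DMSO tumours 0 of 76 passed, beside 0.824% of all genes (0.303% higher and 0.522% lower). The median change was -0.03 and the lowest adjusted p = 0.172 (limma). An unadjusted p under 0.05 was reached by 8 members, beside 15.4% of all genes, and 6 had groups without overlap, beside 10.1%. In GSK tumours 0 rose and 3 fell (3.95%), beside 7.01% of all genes (3.05% higher and 3.95% lower), with a median change of -0.07. An unadjusted p under 0.05 was reached by 23 members, beside 24.9% of all genes, and 21 had groups without overlap, beside 30.3%. The 3 were Mrpl28 (-0.78, SE 0.20; adjusted p = 0.0304, limma), Mrps18a (-0.67, SE 0.16; adjusted p = 0.028, limma) and Mrpl14 (-0.64, SE 0.16; adjusted p = 0.0302, limma). In DMSO tumours the same 3 also lay lower on day 14, by -0.21, -0.39 and -0.47. The DMSO groups did not overlap for Mrps18a and Mrpl14, and these changes did not pass (adjusted p = 0.651, 0.269 and 0.172, limma). Mrps18a had 8.16, 7.74 and 7.85 in GSK day 8 and 7.26, 7.17, 7.57 and 6.97 in GSK day 14 libraries, without overlap. Among the libraries with AY036118 high the changes of the 3 in GSK tumours were -0.55, -0.55 and -0.45, and 0 members passed. In the same comparison 7 of 11 genes of the 4T1 epithelium list fell, with a median of -1.68. With the mean of that list as a covariate 0 members passed. This mean was 5.7 to 6.98 in GSK day 8 and 4.93 to 5.13 in GSK day 14 libraries, so it cannot be told apart from age here. Lyz2 and mt-Nd6, which are not on that list, did not pass with it either. Its part was not tested further. Removal of GSK day 14 library 1, 2 or 4, or of GSK day 8 library 1 or 2, also left 0 members past the threshold. Removal of DMSO day 14 library 1 gave 7 and of GSK day 8 library 3 gave 8. The GSK day 14 libraries enter this comparison and the day 14 comparison alike.

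RNAs encoded by mitochondrial DNA were read beside the members. The ribosomal RNAs of the mitochondrial ribosome, mt-Rnr1 and mt-Rnr2, rose on day 14 by 0.88 (SE 0.22; adjusted p = 0.0226, limma) and 1.27 (SE 0.25; adjusted p = 0.00835, limma). For mt-Rnr2 the libraries had 12.21, 13.18, 13.47 and 13.13 in DMSO and 13.85, 14.08, 14.31 and 14.83 in GSK day 14, without overlap, and its change was 1.43 among the libraries with AY036118 high, where mt-Rnr1 was at 0.68 and did not pass. On day 8 mt-Rnr2 changed by 1.22 (adjusted p = 0.0697, limma). Of 13 mitochondrially encoded mRNAs 5 rose (38.5%, beside 5.1% of all genes) and 0 fell on day 14, with a median of 0.88. The 5 were mt-Nd6, mt-Cytb, mt-Co1, mt-Nd1 and mt-Nd4l. As mt-Nd4l passed the filter only through GSK day 14 libraries, its call cannot be read as a result, although the count and the median include it. Words that also occur in other genes made up 98.9% for mt-Nd4l, 63.9% for mt-Co1, 7.36% for mt-Nd6, 6.55% for mt-Cytb and 0.0% for mt-Nd1. GSK day 14 library 4 had the highest medians for the mRNAs (1.11) and rRNAs (1.30), against -0.01 for the members in that library. The difference between members and mitochondrially encoded genes was not tested.

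**Figure D5:**
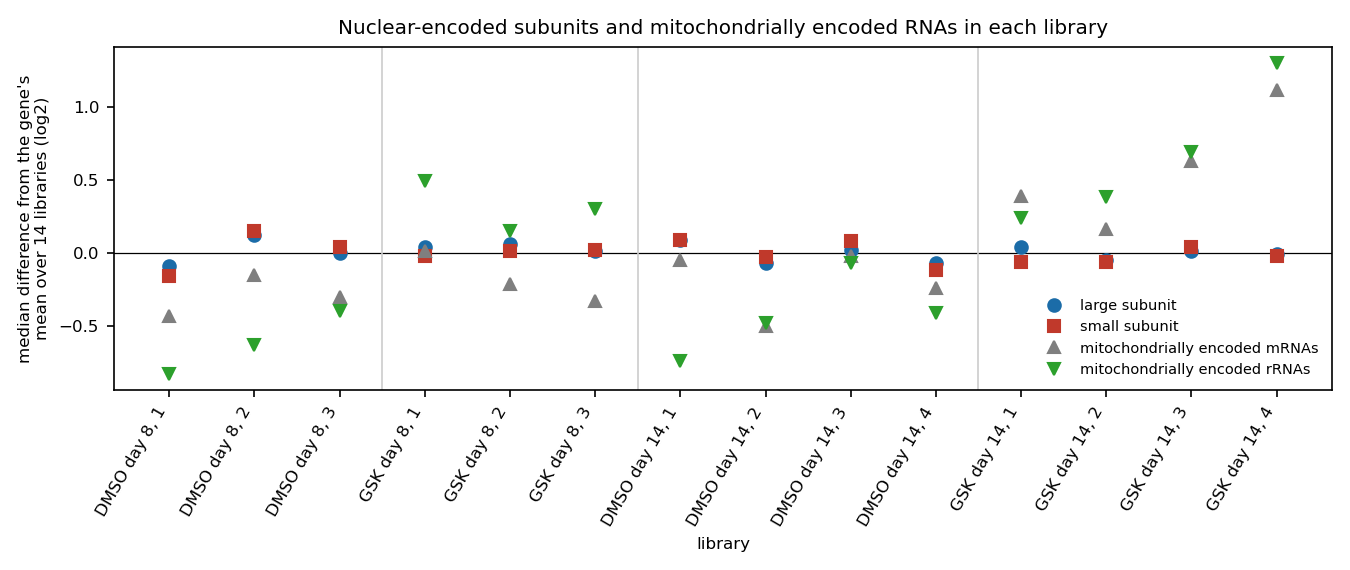
Median difference from each gene's mean over 14 libraries (log2, vertical axis) in each library (horizontal axis), for large-subunit members, small-subunit members and mitochondrially encoded mRNAs and rRNAs. Members stay between -0.16 and 0.15 in every library, while the rRNAs run from -0.83 to 1.30.

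The other nuclear genes of mitochondrial translation were read from lists. Of 5 mitochondrial ribosome subunits with other names, Aurkaip1, a small-subunit protein, rose on day 14 by 0.67 (SE 0.18; adjusted p = 0.0267, limma), with all GSK libraries (7.68 to 7.99) above all DMSO libraries (7.06 to 7.26). Of 21 assembly genes 0 rose and 2 fell (9.52%, beside 10.8% of all genes): Spg7, a subunit of the protease that matures Mrpl32, by a change of -0.73, and Ddx28, an RNA helicase of large-subunit assembly, of -0.44. Spg7 was lost under 12 and Ddx28 under 15 of 30 alternatives, among them the libraries with AY036118 high alone, the ribosomal RNA split and the 4T1 epithelium mean. Aurkaip1 was lost under 9 of 30, among them the ribosomal RNA split and the 4T1 epithelium mean, and under 14 of 29 for the mean of both days. Of 12 translation factors, 19 mitochondrial tRNA synthetases, 20 genes for the mitochondrial genome and its RNA, 8 regulators of nuclear mitochondrial genes and 17 cell cycle genes, 0 passed on day 14. On day 8, 0 genes of these lists passed.

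Averaged over both days, more genes of these lists passed. In addition to Aurkaip1, Spg7 and Ddx28, the assembly gene Trub2 (-0.38), the translation initiation factor Mtif2 (-0.47, SE 0.11; adjusted p = 0.0118, limma), Tbrg4 (-0.48) and Top1mt (-0.45), the mitochondrial topoisomerase, of the genome and RNA list, and the cell cycle gene Birc5 (-0.65, SE 0.14; adjusted p = 0.00844, limma) fell. That made 3 of 21, 1 of 12, 2 of 20 and 1 of 17 genes in these lists, beside 14.5% of all genes. From day 8 to day 14 in GSK tumours Rpusd4 (0.61), an assembly gene, and Lrpprc (0.80), which binds mitochondrial mRNAs, rose, and Spg7 fell (-0.79). Their adjusted p values were 0.0393, 0.0457 and 0.0445 (limma). That made 2 of 21 assembly genes and 1 of 20 genome and RNA genes, beside 7.01% of all genes. The calls were lost under 12 of 29, 16 of 30 and 14 of 30 alternatives. In DMSO tumours these genes changed by 0.06, 0.49 and -0.51 and did not pass.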

How the data were processed

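RNA-seq values of 14 libraries were read from 1 deposited table. Per the file headers it holds 1 column per library, and its values were taken as log2-scale expression from their range. Per the submitters' processing notes the tools were Bowtie2, RSEM 1.2.29 and DESeq2 1.12.4 with builds mm10 and GRCh38; the authors' transformation is not given in the sources used here. The table holds no counts, so the depth is unknown and no interval for counting error is given.

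Symbols and positions came from GENCODE M21 (GRCm38, the assembly of mm10), with 24483 of 24556 identifiers matched. Genes with an unlogged value of at least 10 in at least 3 libraries were kept. All 11886 kept genes entered 1 limma 3.58.1 model (R 4.3.3) of the 4 groups, its variances moderated along a trend with level, with two-sided tests, Benjamini-Hochberg adjustment over them and a threshold of 0.05. It was checked on simulated data. "SE" is the standard error of this fit. Alternatives were offsets of 0.1 and 10, no filter, a minimum of 50, TMM and quantile scaling, no trend, library weights, a replicate block, only the groups compared, the ribosomal RNA split, trends with GC content or length, the 4T1 epithelium mean, shared sequence and each library left out. Replicate numbers did not pair the libraries: between the groups compared, correlations of deviations of same-numbered libraries ran from -0.34 to 0.17.

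Members, lists and rules were chosen with earlier results of these data known. Members named are up to 8 past the threshold in each direction and comparison, the 5 highest and 5 lowest per kilobase, 15 always given, and the smallest p where fewer than 3 passed; genes of other lists are up to 4 past the threshold. The split by level was added after the values were seen. Printed promoters were up to 6, each the first entry of a gene, that hold a motif outside other genes' exons and at most 30 bases of the gene's own annotated exons; 5 qualified.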

Additional observations from a re-analysis of the deposited data

Results flagged for a closer look

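In groups of 4 libraries, the library at one end was set apart from the others by a gap of more than Dixon's 95% critical value, as a share of the group's range, in 10 of 188 groups examined; chance flags about 1 in 20 groups.

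Of the members, Mrpl1 in GSK day 14 had 5.86 in library 1, against 5.28 or less in the others, and Mrps30 had 6.49 in the same library, against 6.33 or less. Mrps21 had 9.74 in GSK day 14 library 4, below 9.95 or more in the others. Mrpl36 had 6.14 in DMSO day 14 library 2, below 6.76 or more in the others.

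Of the other genes, Spg7 had 9.29 in GSK day 14 library 4 (9.75 or more in the others) and Mtif2 6.99 in GSK day 14 library 3 (6.74 or less). In DMSO day 14 library 2, mt-Atp6 had 9.12 (10.66 or more in the others) and mt-Co1 11.37 (12.14 or more). In DMSO day 14 library 1, Gabpb1 had 6.0 (5.42 or less) and Igkc 5.69 (5.07 or less).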

How the results depend on the processing

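Over 30 alternatives, of which 14 leave out 1 library, the results for called genes (77 gene results, 2255 alternatives) kept direction and call in 1623 and direction alone in 631; Krt19, a 4T1 epithelium gene, changed sign from day 8 to day 14 in GSK tumours (0.27) with the epithelium mean as a covariate. The member count was 10 on day 14, 12 for the mean of both days and 3 with age in GSK tumours. It was 3 and 0 (day 14 and age) with the epithelium mean, 20, 24 and 25 with library quality weights, 3, 5 and 0 without the filter, 6, 7 and 0 among libraries with AY036118 high, and 2, 4 and 1 with the ribosomal RNA split in the model. For age it was 5 with the GC trend removed, with a minimum of 50 or after quantile normalisation, and 8 with only the groups compared. For the mean it was 6 among members sharing under 10% of words. With the replicate block it was 9 on day 14, 9 for the mean and 0 with age, although the numbers do not pair the libraries. The cause of these shifts was not tested. Leaving out each library gave 0 to 1 (day 8), 1 to 16 (day 14), 4 to 19 (mean), 0 to 8 (age, GSK), and 0 for the interaction and for age in DMSO tumours. Member medians moved by more than the spread between libraries in 5 of 178 alternatives: on day 8 from 0.03 to -0.06 with quality weights and -0.10 among libraries with AY036118 high, for the mean from 0.01 to -0.13 among the latter, and with age in GSK tumours from -0.07 to 0.01 among members sharing under 10% of words. The fifth was day 8 without DMSO day 8 library 1 (-0.05). With 1 library left out the day 8 median ran from -0.05 to 0.09, the day 14 median from -0.04 to 0.03, the mean from -0.02 to 0.07, the interaction from -0.09 to 0.00, age in DMSO from -0.09 to 0.01 and in GSK from -0.10 to -0.05. Depth is unknown, so what it limits cannot be stated.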
